A study of Mus musculus with 26 samples.

Results

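The 41 genes described here encode the core machinery that copies DNA in S phase: the proteins that license and open replication origins, the polymerases, the sliding clamp and its loader, the enzymes that supply deoxynucleotides, and a few factors that act on new DNA or on entry into S phase. They were picked by gene symbol, through the Ensembl identifiers of the count tables, with earlier results of these data known. They make up 41 of the 39179 genes counted, and 41 of 41 passed the filter on low counts that left 16325 genes for testing. Cortex of C57BL/6J mice was sequenced as total RNA, in 26 libraries, 3 days after focal ischemia (stroke) or after sham surgery. The control diet held 6% of its calories as fat and the high-fat diet 60%. After 6 weeks of diet stroke gave 4 control-diet and 6 high-fat libraries, and sham surgery gave 3 of each diet. After 15 weeks there were 4 stroke libraries on the control diet and 6 on the high-fat diet, and no sham library of that time was analysed here. The stroke tissue was the lesion core with a narrow rim of the cortex around it, so the level of a gene in this bulk tissue depends on both the cells present and the RNA per cell, and these cannot be told apart. No transgene, drug or cell sort is named for any group, and neither age nor sex is given for any of them. The labels do not say that each library is a separate mouse, so p-values measure the spread between libraries.

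Replication starts when the origin recognition complex, Cdc6 and Cdt1 load the MCM helicase on DNA in G1, and Cdc45, GINS and Mcm10 later turn the loaded helicase on. Polymerase alpha with primase lays down primers, polymerases delta and epsilon extend them behind the PCNA clamp, and Fen1 and Lig1 join the lagging-strand pieces. Most of these genes are known to be transcribed as cells leave G1, under E2F transcription factors, and in adult cortex the dividing cells are mostly glial precursors, reactive glia and vascular cells, with neurons post-mitotic.

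Library sizes were close, at 11400882 to 16962682 counts in genes, and 25.8% to 43.4% of the fragments that were assigned to a gene or to no feature fell outside genes. In all, 2 stroke libraries of the 15-week groups had low levels of lesion markers. The 9 phagocyte markers summed to 67.1 CPM (read counts scaled to a common library size) in replicate 1 of the high-fat group and to 156 CPM in replicate 3 of the control group, against 188 to 2054 CPM in the other stroke libraries and 22.8 to 33.2 CPM in sham libraries. Choroid plexus markers summed to 936 CPM in replicate 6 of the 6-week high-fat stroke group and to 266 CPM in replicate 2 of the high-fat sham group, against 3.68 to 80.5 CPM elsewhere. Counts of members called are given with and without them in the comparisons whose groups hold them.

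Part of the promoters of the group hold a sequence feature that the choice by symbol did not use. Most of these genes were known beforehand to be under E2F factors, so the feature is no independent finding. RefSeq windows of 300 bases, from 250 before to 50 after a start site in GRCm38.p6, were at hand for 33 of the 41 genes. An E2F word, written TTTCCCGC, TTTCGCGC, TTTGCCGC or TTTGGCGC and searched on both strands, stood in the windows of 14 of these 33 genes (42.4%), against 704 of 27025 genes with a window (2.61%). The words were most frequent among the origin-licensing genes, where 7 of 9 genes held one (Orc1, Cdc6, Cdt1, Mcm3, Mcm5, Mcm6 and Mcm7), and among the polymerases, where Pola1, Pold1 and Pole2 of 5 genes did. None of the 4 nucleotide-supply genes and neither Ccne1 nor E2f1 held such a word in these windows. A large part of the E2f1 window reads as protein-coding sequence of that gene. The bases upstream of that coding sequence were therefore not searched, and the lack of a word says nothing of the E2f1 promoter. The gene stays in the counts of genes with a window given here. The CCAAT box bound by NF-Y was in 18 of 33 (54.5%), against 41.1% of all genes, and the TTTGAA word that marks many mitotic promoters was in 4 of 33 (12.1%), against 20.2%. The E2F word was not particular to the 41 genes. Among related genes with a window, it was in 9 of 20 other G1/S regulators (45%). It was also in 5 of 16 other nucleotide and S phase chromatin genes (31.25%) and 8 of 29 other fork and origin genes (27.6%). For contrast, 21 of 24 mitosis genes had a window: 0 of 21 held an E2F word, 16 of 21 held CCAAT (76.2%) and 15 of 21 held TTTGAA (71.4%).

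The stretches below are those of the most abundant gene of each role that held an E2F word, shown to let the words be compared with the response of the gene. Each is written 5′ to 3′ on the strand of the gene with the E2F word in capitals, from 200 bases before the start site up to it, or, where the word touches or follows the start site, as 30 bases around it.

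Mcm6 (chr1:128359706-128359905, minus strand): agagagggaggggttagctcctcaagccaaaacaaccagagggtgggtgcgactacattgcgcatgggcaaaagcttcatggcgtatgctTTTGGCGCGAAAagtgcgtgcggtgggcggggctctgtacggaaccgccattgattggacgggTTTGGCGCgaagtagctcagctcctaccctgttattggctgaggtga

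Pola1 (chrX:93632156-93632355, minus strand): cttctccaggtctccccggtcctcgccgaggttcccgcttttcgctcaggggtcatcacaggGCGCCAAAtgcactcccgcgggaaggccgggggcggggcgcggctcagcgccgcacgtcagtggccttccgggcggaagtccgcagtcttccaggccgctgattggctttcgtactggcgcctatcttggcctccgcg

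Uhrf1 (chr17:56304113-56304312, plus strand): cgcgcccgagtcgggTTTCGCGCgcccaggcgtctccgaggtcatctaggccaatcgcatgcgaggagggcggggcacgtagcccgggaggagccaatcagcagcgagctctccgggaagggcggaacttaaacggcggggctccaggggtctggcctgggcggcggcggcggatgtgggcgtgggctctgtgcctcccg

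Gins3 (chr8:95633359-95633558, plus strand): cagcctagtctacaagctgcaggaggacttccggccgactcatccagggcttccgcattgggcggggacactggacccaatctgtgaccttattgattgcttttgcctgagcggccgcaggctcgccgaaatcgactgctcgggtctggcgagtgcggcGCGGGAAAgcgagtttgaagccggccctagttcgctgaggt

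Rfc3 (chr5:151651199-151651228, minus strand): cgtcgcacgcTTTCGCGCtcGCGGGAAAac

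Lig1 (chr7:13278841-13278870, plus strand): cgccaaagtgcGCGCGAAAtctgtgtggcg

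In Mcm6, 2 words overlap at 110 and 106 bases before the start site and another lies 47 bases before it. The words of Pola1, Uhrf1 and Gins3 begin 138, 185 and 41 bases before the start site, and those of Rfc3 begin 10 bases before it and at it. In Lig1 the word begins 26 bases after the start site. Uhrf1 and Lig1 have further annotated start sites, and the one whose window held the word is shown. Mcm6, Uhrf1 and Lig1 rose after stroke on both diets, Pola1 and Rfc3 passed the test on the high-fat diet alone, and Gins3 passed it on neither, as described next. Among genes with a window, 5 of the 10 that rose on both diets and 2 of the 9 that passed on neither held an E2F word. A match is a description of the letters and says nothing of binding.

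Stroke raised a large part of the replication machinery at 6 weeks, and no member fell. On the control diet, 11 of 41 genes were higher in stroke than in sham cortex (edgeR quasi-likelihood test, Benjamini-Hochberg adjusted p under 0.05), where 5.1% of all tested genes were called higher, 2.57% lower and 7.68% in either direction. The 11 were Tk1, Rrm2, Uhrf1, Chaf1b, Cdc6, Mcm3, Mcm10, Mcm6, Pole, Cdc45 and Lig1. On the high-fat diet 30 of 41 were higher, where 14.2% of all tested genes were higher, 8.85% lower and 23.1% called in either direction. All 11 of the control-diet genes were among the 30, which is 11 of 11 and 11 of 30. The fitted log2 fold change was above 0 for 40 of 41 genes on each diet, and the median over the 41 genes was 0.47 (control diet) and 0.90 (high-fat diet), against 0.0026 and -0.019 over all tested genes. Of the genes called, 10 rose at least 2-fold on the control diet and 18 on the high-fat diet. The shares of all tested genes called at 2-fold or more, or called on both diets, are not reported here. The counts of 2-fold rises and of shared genes therefore cannot be read as an excess. Every stroke library lay above every sham library for 24 of 41 genes on the control diet, against 14.9% of tested genes, and for 31 of 41 on the high-fat diet, against 15.8%. Because the genes were chosen with earlier results of these data known, their excess over all tested genes is no independent test.

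**Figure D1:**
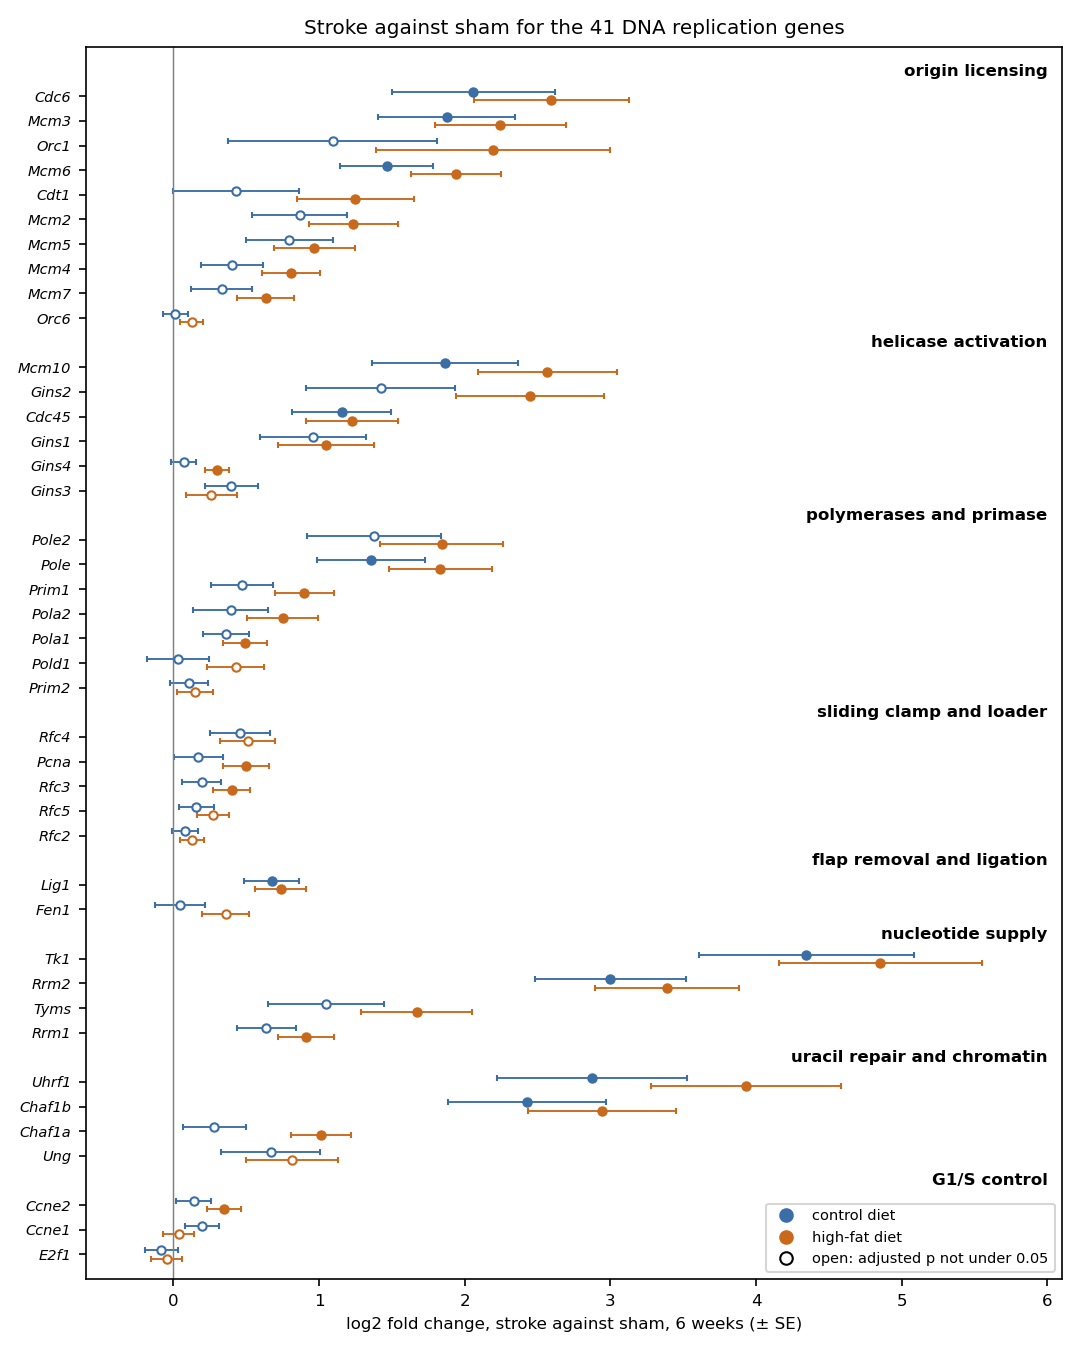
Log2 fold change of stroke against sham at 6 weeks for the 41 genes, by role, with bars of ± 1 SE; blue is the control diet, orange the high-fat diet, and filled points passed an adjusted p of 0.05. The points of 40 of 41 genes lie right of 0 on each diet, with Tk1, Uhrf1, Rrm2 and Chaf1b farthest right and Orc6, Rfc2, Ccne1 and E2f1 near 0.

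How many genes passed depended on single libraries on the control diet, with 4 stroke and 3 sham libraries. The count of 11 fell to 3, 4 and 3 without sham replicates 1, 2 and 3, to 3 without stroke replicate 2 and to 6 without stroke replicate 3. It rose to 19 without replicate 1 of the 15-week high-fat stroke group, which is in neither of the groups compared. The share of all tested genes called moved too, to 1.83%, 1.96% and 2.81% without the 3 shams, 2.12% and 3.82% without the stroke libraries, and 12% without the 15-week library. Tk1 and Rrm2 passed in all 26 fits that left out 1 library. The share of fragments outside genes was 25.8% to 31.8% in the control-diet stroke libraries and 33.1% to 35.8% in their shams, and 29.4% to 32.6% against 34.3% to 37.8% on the high-fat diet. With that share as a covariate the counts were 5 (Mcm6, Rrm2, Tk1, Uhrf1 and Chaf1b) and 15, where 3.27% and 8.4% of all tested genes were called, and the medians of the 41 log2 values were 0.41 and 0.75. Without the 2 libraries rich in choroid plexus genes, 19 genes passed in high-fat mice and the median log2 value was 0.93, where 11.1% of tested genes were called.

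Among the origin-licensing genes, the helicase subunits and their loaders rose, and Orc6 passed on neither diet. Of the 10, 3 rose on the control diet and 9 on the high-fat diet, with median log2 fold changes of 0.83 and 1.24. Mcm6, a helicase subunit, measured 7.19, 8.95 and 7.96 CPM in the control-diet shams and 8.93, 6.94 and 7.07 CPM in the high-fat shams. It measured 20.9, 26.7, 22.2 and 18.9 CPM in the control-diet stroke libraries and 21.8 to 37.1 with a median of 29.8 CPM in the high-fat ones. No stroke library overlapped a sham library, and the log2 fold change was 1.46 ± 0.32 (SE; adjusted p = 0.00996, edgeR) on the control diet and 1.94 ± 0.31 (adjusted p = 0.000336, edgeR) on the high-fat diet. Mcm3 rose by 1.88 ± 0.47 and 2.25 ± 0.45 on the log2 scale. Mcm2, Mcm4, Mcm5 and Mcm7 passed on the high-fat diet alone, at 1.24 ± 0.30, 0.81 ± 0.20, 0.97 ± 0.28 and 0.63 ± 0.20. A processed pseudogene 97.7% identical to Mcm7 over 2157 bases has no entry in the counts. The loaders moved as well: Cdc6 rose on both diets (2.06 ± 0.56 and 2.59 ± 0.53), and Cdt1 passed on the high-fat diet (1.25 ± 0.40, against 0.43 ± 0.43 on the control diet). Orc1, the largest subunit of the origin recognition complex, had the lowest level per length of the 41 genes, with 5 counts over the 3 high-fat shams and 55 over the 6 high-fat stroke libraries, and its adjusted p of 0.0496 (edgeR) lay just under the threshold. Orc6, the smallest subunit, stood at 24.6, 24.4 and 23.3 CPM and 21.1, 20.4 and 21.4 CPM in the shams of the control and high-fat diet. In stroke it was 23.3, 23.9, 21.5 and 28.5 CPM on the control diet and 21.1 to 24.4 with a median of 23 CPM on the high-fat diet, overlapping the shams on both, with log2 fold changes of 0.01 ± 0.09 and 0.13 ± 0.08. In the annotation 6.93% of the Orc6 exon bases lie opposite Vps35, which held 77291 counts. The use of strand in counting is not given, so the Orc6 level is uncertain.

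Of the 6 genes that turn the loaded helicase on, 2 rose on the control diet and 5 on the high-fat diet. Mcm10, which joins the helicase as it is activated, rose by 1.87 ± 0.50 on the control diet (adjusted p = 0.0245, edgeR) and 2.57 ± 0.48 on the high-fat diet. Cdc45, part of the active helicase, measured 2.21, 1.26 and 1.62 CPM and 2.38, 2.06 and 1.63 CPM in control-diet and high-fat shams. Its stroke values were 3.72, 4.39, 3.87 and 3.16 CPM on the control diet and 3.80 to 5.42 with a median of 4.80 CPM on the high-fat diet, all above the shams, for log2 fold changes of 1.15 ± 0.34 and 1.23 ± 0.31. Of the 4 GINS subunits, which form 1 complex, 0 passed on the control diet and 3 on the high-fat diet. Gins2 rose by 2.45 ± 0.51 on the high-fat diet, with 1.42 ± 0.51 on the control diet, and Gins1 by 1.05 ± 0.33 with 0.96 ± 0.36. Gins4 was at 18.8, 16.1 and 16.2 CPM in control-diet shams and 16.6, 13.6 and 16.4 CPM in high-fat shams, and at 18.4, 17.1, 16.7 and 19.3 CPM and 17.9 to 20.4 with a median of 18.7 CPM in stroke. Its high-fat stroke libraries all lay above the high-fat shams by a small margin (0.30 ± 0.08, adjusted p = 0.0105, edgeR), and its control-diet groups overlapped. Gins3 passed on neither diet (0.40 ± 0.18 and 0.26 ± 0.17). In the annotation 67.3% of the Gins2 exon bases lie opposite the gene Gse1, and whether the counting used strand is not given in the sources used here, so the Gins2 value is uncertain.

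Among the 7 polymerase and primase genes, 1 rose on the control diet and 5 on the high-fat diet. Pole, the catalytic subunit of the leading-strand polymerase epsilon, rose by 1.36 ± 0.37 and 1.83 ± 0.35, and its partner Pole2 by 1.84 ± 0.42 on the high-fat diet (1.38 ± 0.46 on the control diet, adjusted p = 0.0648, edgeR). Pold1, the catalytic subunit of polymerase delta, passed on neither diet, with 0.03 ± 0.21 and 0.43 ± 0.20. Pola1, the catalytic subunit of polymerase alpha, measured 18.2, 17.5 and 16.7 CPM and 16.7, 15.4 and 16.6 CPM in control-diet and high-fat shams. In stroke it measured 21.4, 22.4, 25.9 and 20.4 CPM on the control diet and 19.5 to 25.8 with a median of 23.6 CPM on the high-fat diet, with no overlap on either diet. The difference was small, at 0.36 ± 0.16 (adjusted p = 0.164, edgeR) and 0.49 ± 0.15 (adjusted p = 0.019, edgeR). Of the 2 primase subunits, Prim1, which makes the primers, rose on the high-fat diet (0.90 ± 0.20), and Prim2 did not pass. Prim2 was at 11.7, 12.7 and 9.96 CPM and 11, 11.6 and 11.5 CPM in control-diet and high-fat shams, and at 12.2, 13.8, 12.2 and 11.1 CPM and 10.7 to 13.6 with a median of 13.1 CPM in stroke, so the groups overlapped on both diets. Pola2 passed on the high-fat diet at 0.75 ± 0.24.

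The clamp and its loader held the most abundant member, Pcna, and moved least among the roles that act at the fork, with 0 of 5 genes called on the control diet and 2 of 5 on the high-fat diet, and median log2 fold changes of 0.17 and 0.40. Pcna, the clamp itself, measured 43.1, 43.1 and 42.4 CPM in control-diet shams and 41.7, 35.9 and 37.8 CPM in high-fat shams. It measured 44.5, 54.7, 47 and 47 CPM in control-diet stroke and 47.5 to 64.1 with a median of 53.9 CPM in high-fat stroke. Every stroke library was above its shams, yet the log2 fold change on the control diet, 0.17 ± 0.17, did not pass (adjusted p = 0.589, edgeR), while that on the high-fat diet, 0.50 ± 0.16, did (adjusted p = 0.0244, edgeR). A processed pseudogene 99.2% identical to Pcna over 781 bases took 66 counts against 18780 for Pcna, and identical stretches can share reads between them. Rfc2, a loader subunit, was at 29.4, 26.6 and 26.8 CPM and 29.1, 24.1 and 29.1 CPM in shams and at 30.7, 29.2, 27.7 and 28.9 CPM and 28.3 to 31.6 with a median of 30.3 CPM in stroke, and these overlapped (0.08 ± 0.09 and 0.13 ± 0.08). Rfc3 passed on the high-fat diet (0.40 ± 0.13), and Rfc4 and Rfc5 did not (0.51 ± 0.19 and 0.27 ± 0.11). In the annotation 12.7% of the Rfc4 exon bases lie opposite Eif4a2, which held 249286 counts against 1742 for Rfc4. For Rfc5, 10.7% lie opposite Wsb2, with 95714 counts against 4010. For Rfc2, 15.1% lie opposite Lat2, with 3678 counts against 10935. The levels of Rfc4, Rfc5 and Rfc2 are uncertain, since the use of strand in counting is not given.

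Of the 2 genes that finish the lagging strand, Lig1 rose on both diets and Fen1 passed on neither. Lig1, the ligase that seals the pieces, was at 6.91, 7.62 and 6.14 CPM and 8.06, 7.16 and 8.06 CPM in control-diet and high-fat shams. It was at 10.3, 13.3, 10.9 and 9.54 CPM and 10.9 to 14.6 with a median of 12.9 CPM in the stroke libraries of those diets, above every sham, and rose by 0.68 ± 0.19 (adjusted p = 0.0297, edgeR) and 0.74 ± 0.17 (adjusted p = 0.00413, edgeR). Fen1, the flap nuclease, was at 14, 13.1 and 13.3 CPM and 12.5, 12.3 and 11.6 CPM in shams and at 14.3, 14.5, 12.1 and 14.7 CPM and 13.8 to 17 with a median of 15.7 CPM in stroke. It passed on neither diet (0.05 ± 0.17 and 0.36 ± 0.16), although its high-fat stroke libraries did not overlap the high-fat shams. An annotated antisense transcript covers 78.8% of the Fen1 exon bases and held 63 counts in all, against 5502 for Fen1.

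Nucleotide supply held the steepest rises: 2 of its 4 genes passed on the control diet and 4 of 4 on the high-fat diet, with medians of 2.02 and 2.53. Tk1, the S phase thymidine kinase, went from 7 counts over the 3 shams of each diet to 193 counts over 4 control-diet and 482 over 6 high-fat stroke libraries. As CPM it was 0.207, 0.210 and 0.0647 and 0.216, 0.213 and 0.0707 in the shams, and 2.32, 5.66, 3.43 and 2.10 and 3.88 to 6.31 with a median of 4.87 in stroke, for log2 fold changes of 4.35 ± 0.74 (adjusted p = 0.00289, edgeR) and 4.85 ± 0.70 (adjusted p = 0.000226, edgeR), the largest of the 41 genes on both diets. Its groups lay far apart, but the small sham counts leave the size of the ratio imprecise. The small subunit of ribonucleotide reductase, Rrm2, which is made mainly in S phase, measured 0.553, 1.89 and 0.776 CPM and 1.01, 1.20 and 1.13 CPM in shams. In stroke it measured 6.04, 13.6, 8.89 and 5.72 CPM on the control diet and 8.99 to 15.2 with a median of 11.2 CPM on the high-fat diet, and rose by 3.00 ± 0.52 and 3.39 ± 0.50. Its large partner Rrm1 was already abundant in sham cortex. Rrm1 measured 21, 24.6 and 23.2 CPM and 22.2, 22.1 and 20.7 CPM there, and 35, 42.3, 35.8 and 29.6 CPM and 34.8 to 47.8 with a median of 39.5 CPM in stroke. The Rrm1 groups did not overlap, with 0.64 ± 0.20 on the control diet (adjusted p = 0.0543, edgeR) and 0.91 ± 0.19 on the high-fat diet (adjusted p = 0.00186, edgeR). Tyms, which makes thymidylate, passed on the high-fat diet (1.67 ± 0.38).

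Of the 4 genes of uracil repair and chromatin, 2 rose on the control diet and 3 on the high-fat diet. Uhrf1, which reads hemimethylated DNA behind the fork, was at 0.968, 1.68 and 0.776 CPM and 0.864, 0.850 and 0.848 CPM in the shams. It reached 5.90, 13.9, 8.62 and 5.0 CPM in control-diet stroke and 8.92 to 17 with a median of 13.5 CPM in high-fat stroke, far above every sham, with log2 fold changes of 2.87 ± 0.65 (adjusted p = 0.012, edgeR) and 3.93 ± 0.65 (adjusted p = 0.000438, edgeR). The 2 subunits of chromatin assembly factor, which places histones on new DNA, were Chaf1b and Chaf1a: Chaf1b rose by 2.43 ± 0.54 and 2.95 ± 0.51, and Chaf1a rose by 1.01 ± 0.21 on the high-fat diet. Chaf1a was at 5.11, 3.42 and 4.98 CPM and 3.74, 2.91 and 3.89 CPM in shams and at 5.76, 5.98, 5.89 and 4.34 CPM and 5.27 to 8.52 with a median of 7.06 CPM in stroke, overlapping only on the control diet (0.28 ± 0.22). Exons of Ubxn6 on the opposite strand cover 52.5% of the Chaf1a exon bases, which makes that level uncertain. Ung, the uracil glycosylase, did not pass (0.67 ± 0.34 and 0.82 ± 0.32).

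The G1/S genes were the flattest. E2f1, a transcription factor of the E2F family, had log2 fold changes of -0.08 ± 0.11 and -0.04 ± 0.11, the only values below 0 among the 41, and 11.6 ± 0.654 (SD, n = 3) CPM in control-diet shams against 11 ± 1.09 (SD, n = 4) CPM in stroke. Ccne1, cyclin E1, measured 12.7, 12.5 and 14 CPM and 14.7, 14.5 and 13.7 CPM in shams, and 15.6, 14.8, 14.4 and 15.2 CPM and 12.6 to 16.4 with a median of 14.7 CPM in stroke. Its control-diet stroke libraries all lay above their shams without passing (0.20 ± 0.12, adjusted p = 0.318, edgeR), and its high-fat groups overlapped (0.04 ± 0.11). Ccne2, cyclin E2, was at 14.7, 11.4 and 11 CPM and 10.4, 9.35 and 9.83 CPM in shams and at 13.8, 12.4, 13.8 and 14.5 CPM and 10.8 to 13.6 with a median of 12.9 CPM in stroke. Only its high-fat comparison passed (0.35 ± 0.11, adjusted p = 0.0305, edgeR), with control-diet groups that overlapped and 17.4% of its exon bases shared with Ints8.

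**Figure D2:**
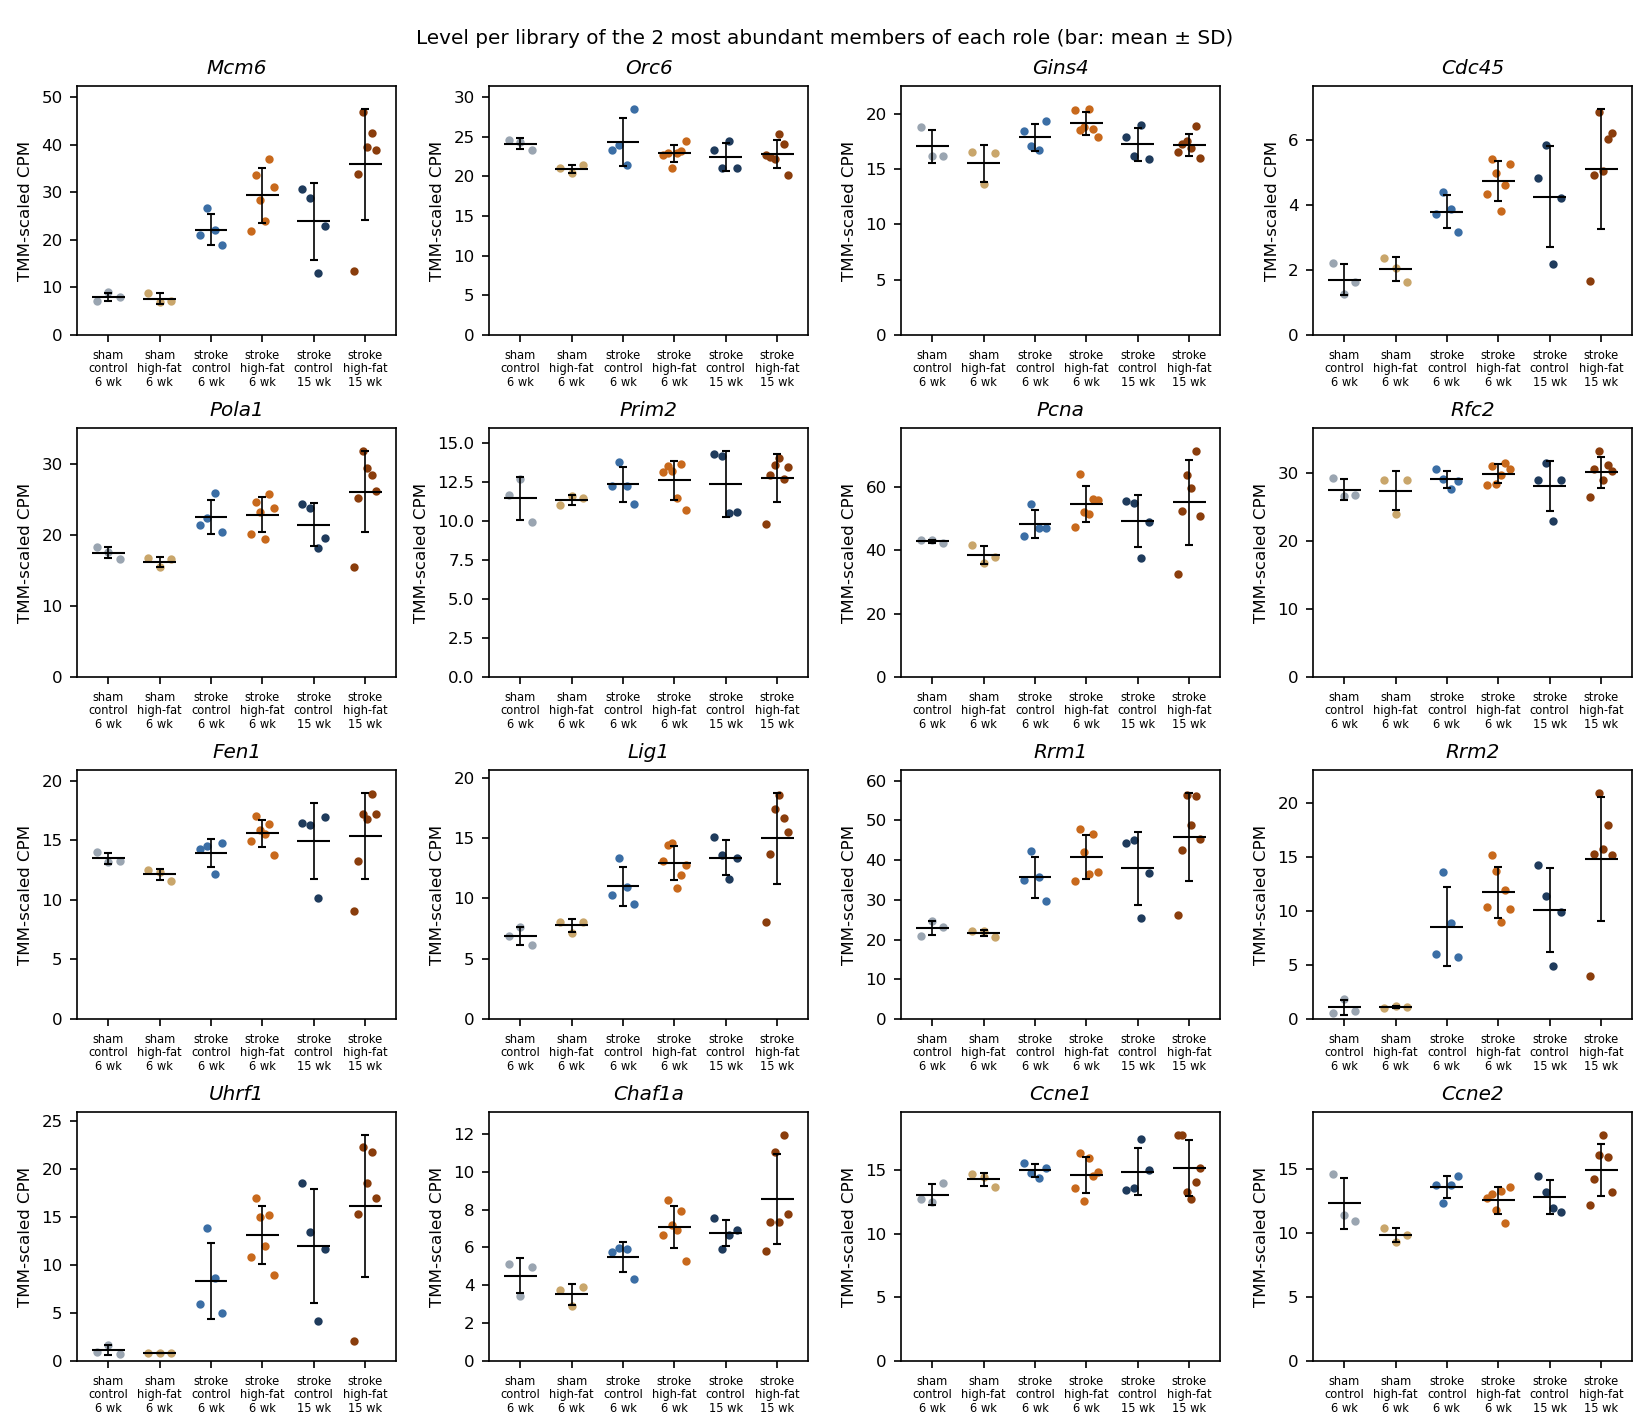
TMM-scaled CPM per library (points) for the 2 most abundant members of each role in the 6 groups, with the group mean and ± SD; each y axis starts at 0. Mcm6, Rrm1, Rrm2, Uhrf1 and Cdc45 stand clear of both sham groups at 6 weeks, Orc6, Prim2 and Rfc2 do not, and replicate 1 of the 15-week high-fat group lies lowest of its group for Mcm6, Rrm2, Uhrf1 and Pcna.

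Genes that were scarce in sham cortex rose most, and genes that were abundant there rose little. To keep the fold change and the sham level on different libraries, the sham level per kilobase of exon was taken from 1 diet and the fold change from the other. Across the 41 genes, Spearman's rho was -0.82 between the control-diet sham level and the high-fat fold change, and -0.78 between the high-fat sham level and the control-diet fold change, as a description, since genes are not independent replicates. The 10 genes of lowest control-diet sham level had high-fat fold changes with a median of 2.51 (log2), and 9 of them were called. The 10 of highest level had a median of 0.32 with 5 called. The filter on low counts bears on this relation. Tk1, Orc1 and Chaf1b, for instance, held at most 3, 5 and 8 counts in any sham library, under the minimum count of 10. They passed the filter through stroke libraries alone. A gene as scarce as these in sham cortex could be tested only if it was higher in stroke, so the relation is no test. The same split on the other pair of diets gave 1.64 with 6 called and 0.11 with 0 called. On the scale of differences in CPM, the order changed. Mcm6 gained 14.1 CPM on the control diet (12.2% of the summed gain of the 41 genes) and Rrm1 12.8 CPM (11%), followed by Rrm2, Uhrf1 and Mcm3 at 7.50, 7.21 and 6.24 CPM. On the high-fat diet Mcm6 gained 21.7 CPM, Rrm1 19.1, Pcna 16.0, Uhrf1 12.3 and Rrm2 10.6 CPM, whereas Tk1, with the steepest fold change, gained 4.87 CPM.

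**Figure D3:**
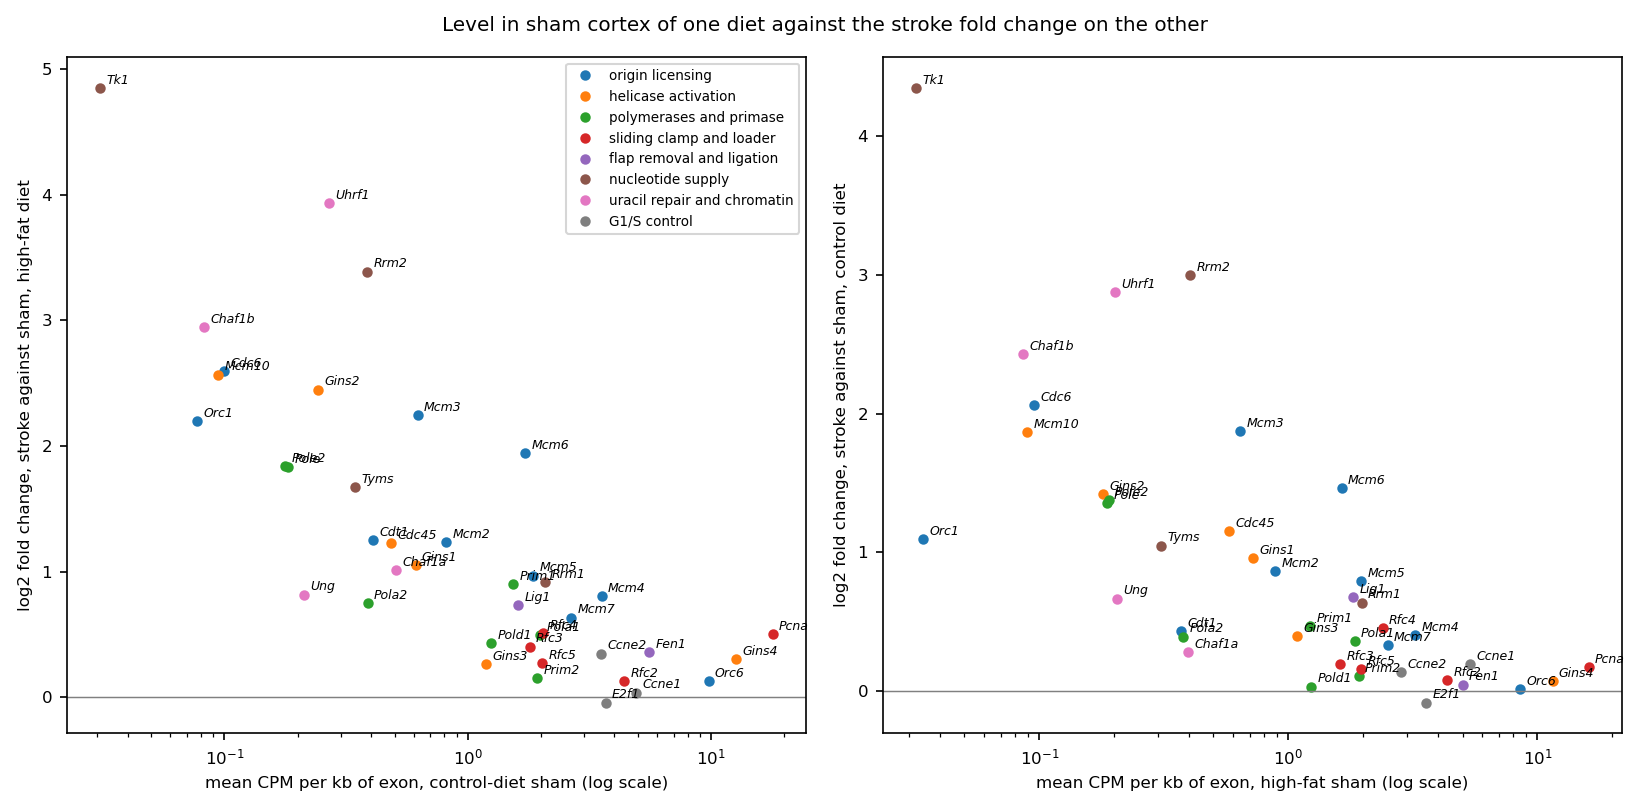
Mean CPM per kb of exon in the shams of 1 diet (x, log scale) against the log2 fold change of stroke on the other diet (y), 1 point per gene, coloured by role. Tk1, Uhrf1, Chaf1b and Cdc6 lie at the upper left, and Pcna, Gins4 and Orc6 at the lower right, with Spearman's rho of -0.82 (left) and -0.78 (right).

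Subunits that work as complexes were not measured at equal levels, and stroke brought some of them closer together. Per kilobase of exon, the MCM2 to MCM7 subunits ran from 0.623 CPM per kb (Mcm3) to 3.55 (Mcm4) in control-diet shams, a ratio of 5.69, and from 1.49 (Mcm2) to 4.75 (Mcm6) in control-diet stroke, a ratio of 3.19. On the high-fat diet the ratio was 5.04 in shams and 3.02 in stroke. The GINS subunits spanned far more, from 0.243 CPM per kb (Gins2) to 12.6 (Gins4) in control-diet shams, a ratio of 52, and 20.4 in control-diet stroke. In high-fat shams and stroke the GINS ratios were 64 and 14.3, with Gins2 lowest and Gins4 highest in all 6 groups. The clamp loader subunits stayed within ratios of 2.08 to 2.69 in every group, Rfc3 lowest and Rfc2 highest. Over all 26 libraries Pcna had the highest level per length of the 41 genes (20.7 CPM per kb), then Gins4 (13.0) and Orc6 (9.30), and Orc1 the lowest (0.167). These ratios depend on the exon lengths used and were not tested. The GINS ratios rest on Gins2, which had 44 counts over the control-diet shams and 31 over the high-fat shams. The Gins2 level is uncertain because of the overlap with Gse1 given above, and the Orc6 level because of that with Vps35.

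**Figure D4:**
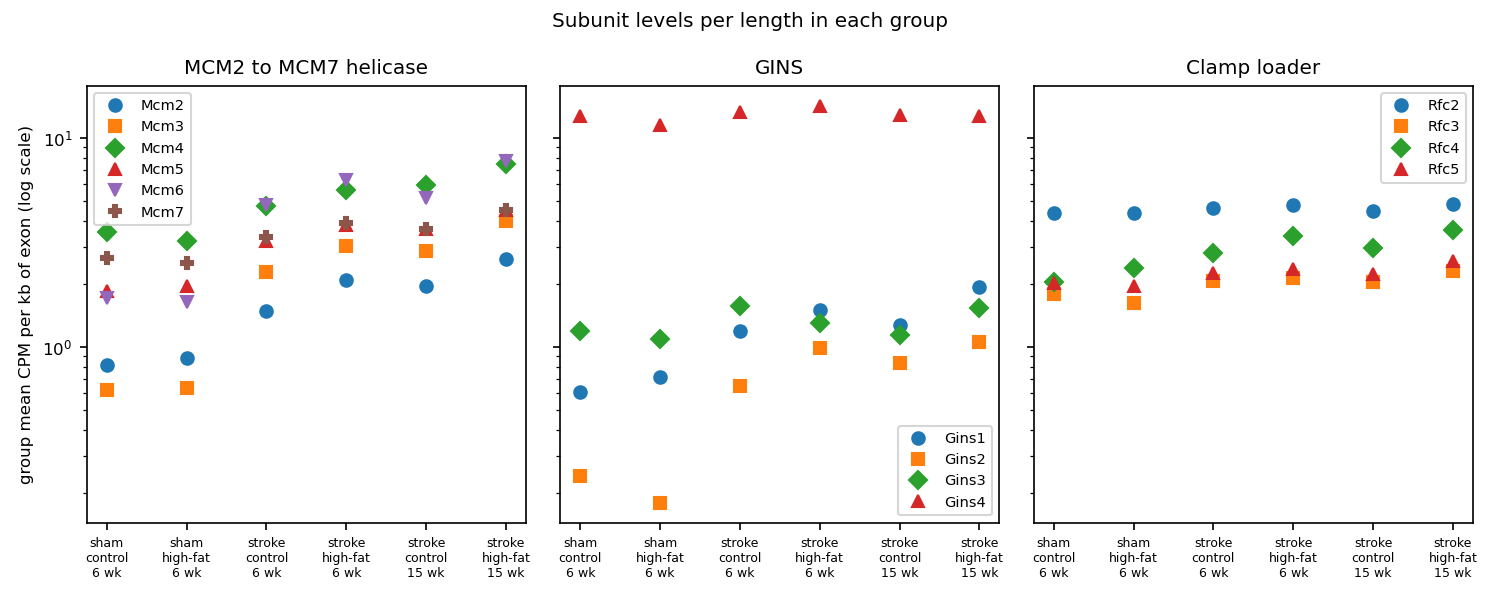
Group mean CPM per kb of exon (log scale) for the subunits of the MCM helicase, GINS and the clamp loader in the 6 groups. The MCM subunits sit between 0.623 and 3.55 in control-diet shams and higher in stroke, Gins4 stays between 11.5 and 14.2 while Gins2 moves from 0.243 to 0.648 on the control diet, and the clamp loader subunits stay within 2.08- to 2.69-fold of each other.

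Other genes of the replication and cell cycle pathways moved in part. Of 35 other fork and origin genes, 5 rose and 0 fell on the control diet, median log2 change 0.06, and 16 rose and 1 fell on the high-fat diet, with a median of 0.24. Ticrr, needed to fire origins, was the steepest (3.81 ± 0.91 and 3.40 ± 0.72). Dscc1 (2.41 ± 0.58 on the control diet), Clspn (1.44 ± 0.38 and 1.71 ± 0.37), and Chtf18 (1.08 ± 0.32 on the control diet) rose too. So did Dna2 (1.48 ± 0.30 on the high-fat diet) and Gmnn, the inhibitor of Cdt1 (1.25 ± 0.27 on the high-fat diet). The gene that fell was Orc4, another subunit of the origin recognition complex (-0.21 ± 0.07, high-fat diet; named because it stood alone). Of 21 other nucleotide and S phase chromatin genes, 5 rose on the control diet and 8 on the high-fat diet. Among them were Brca1 (1.33 ± 0.32 and 1.51 ± 0.30) and Asf1b (2.23 ± 0.66 and 2.91 ± 0.61). Others were Dck (0.32 ± 0.09 on the control diet), Hells (1.35 ± 0.23 on the high-fat diet) and Shmt1 (1.32 ± 0.28 on the high-fat diet). Of 28 other G1/S regulators, 27 were tested, and 6 rose on the control diet and 10 on the high-fat diet, with 1 that fell, Rbl2 (-0.20 ± 0.07, named because it stood alone). Here Cdk1 (4.16 ± 0.67 and 5.44 ± 0.71), Ccna2, the S phase cyclin A2 (3.02 ± 0.54 and 3.99 ± 0.55), E2f8 (2.64 ± 0.61 on the control diet), Cdkn2c (1.86 ± 0.30 on the high-fat diet) and Ccnd1, cyclin D1 (0.84 ± 0.20 and 1.09 ± 0.19), rose. Mitosis genes moved more uniformly: 21 of 24 rose on the control diet and 23 of 24 on the high-fat diet, with medians of 2.65 and 3.12. Ndc80 (3.41 ± 0.54 and 4.27 ± 0.54) and Birc5 (3.03 ± 0.52 and 3.54 ± 0.50) had small p-values on both diets. Mki67 and Cenpf on the control diet (4.15 ± 0.65 and 3.40 ± 0.54) and Nuf2 and Nusap1 on the high-fat diet (3.29 ± 0.46 and 4.32 ± 0.60) were the other leading genes.

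Markers of other cells moved with the replication genes. Of 9 phagocyte markers 9 rose on each diet. Their summed level went from 25.0 to 33.2 CPM in control-diet shams to 188 to 1006 CPM in stroke, and from 22.8 to 29.4 CPM to 542 to 1433 CPM on the high-fat diet. Of 9 microglial markers 9 rose on each diet, from 304 to 325 CPM to 566 to 901 CPM, and from 293 to 332 CPM to 737 to 964 CPM. Oligodendrocyte precursor markers (0 of 7 called on the control diet and 6 of 7 on the high-fat diet) went from 158 to 167 CPM to 190 to 215 CPM, and from 161 to 174 CPM to 223 to 262 CPM. Endothelial markers (0 of 7 and 4 of 7) went from 125 to 134 CPM to 161 to 181 CPM, and from 117 to 148 CPM to 154 to 245 CPM. Pericyte and fibroblast markers rose in 1 of 7 and 4 of 7, astrocyte markers in 2 of 7 and 3 of 7 with 1 lower on the high-fat diet, and markers of progenitors and neuroblasts in 0 and 2 of the 7 tested. Excitatory neuron markers fell in 0 of 8 and 4 of 8, and their sum of 4773 to 5223 CPM in the 6 shams shows that markers of the labelled tissue were present. Lymphocyte markers, of which 0 of 7 passed the filter on low counts, summed to at most 1.15 CPM in any 6-week library, with Cd3e, Cd3d, Cd8a and Nkg7 at 0 in all 6 shams. Neutrophil markers, of which 2 of 7 passed that filter, rose in 0 on the control diet and in 1 on the high-fat diet, S100a8 (named because it stood alone). They summed to at most 0.432 CPM in shams, 2.26 CPM in 6-week stroke and 4.94 CPM in 15-week stroke, with Ly6g at 0 in all 26 libraries. The part of these cells in the replication result was not tested.

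**Figure D5:**
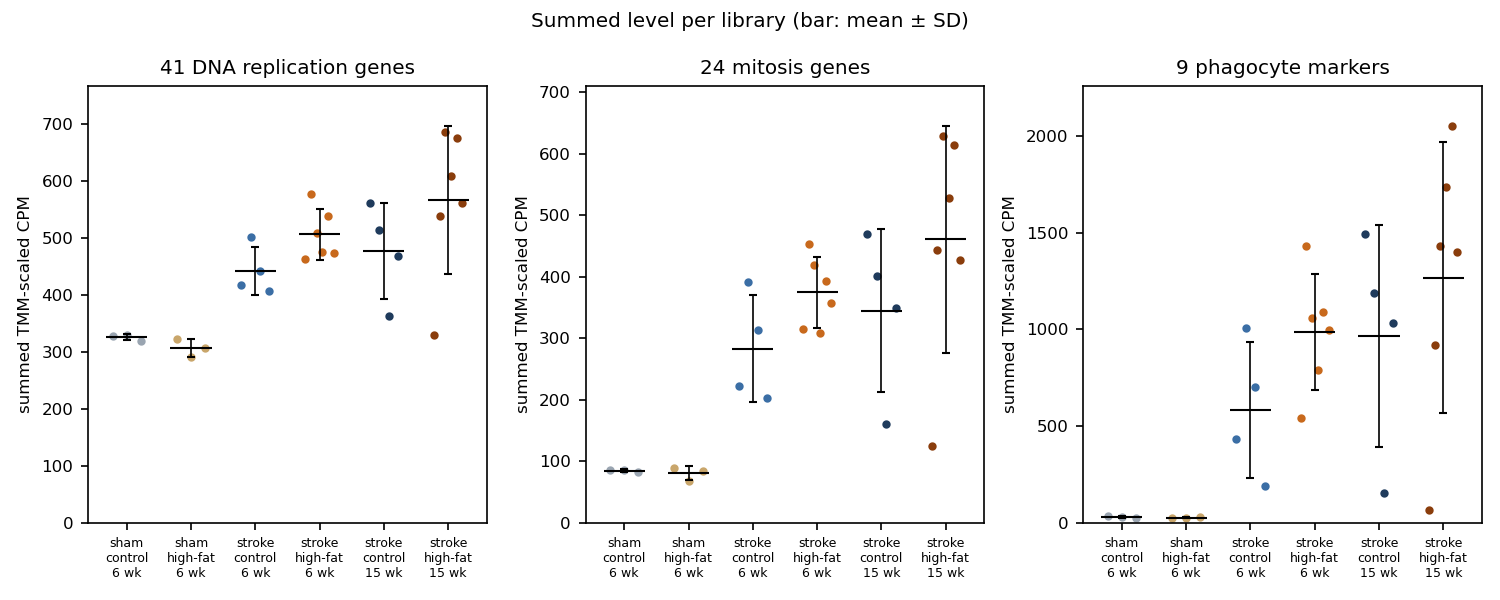
Summed TMM-scaled CPM per library (points) of the 41 replication genes, of 24 mitosis genes and of 9 phagocyte markers in the 6 groups, with the group mean and ± SD. The replication sum is 292 to 330 in the shams and 407 to 577 in the 6-week stroke libraries, and the 15-week libraries with the lowest phagocyte sums (67.1 and 156) also have the lowest replication sums of their groups (329 and 363).

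In stroke cortex most replication genes measured higher on the high-fat than on the control diet, and no gene passed the test. The summed level of the 41 genes was 442 ± 42.6 CPM (SD, n = 4) in control-diet and 506 ± 44.3 CPM (n = 6) in high-fat stroke at 6 weeks, and 326 ± 5.57 and 307 ± 15.7 CPM (n = 3 each) in the shams. In 6-week stroke 0 of 41 genes were called (edgeR, where 0% of tested genes were, and 0 by DESeq2 and by voom). An unadjusted p under 0.05 was seen for 2 genes with edgeR, 3 with DESeq2, 16 with voom, 17 with only the groups compared in the fit and 16 without the 2 low 15-week libraries, with 0 called in each. Over all tested genes, 1141 of 16325 had such a p with edgeR. That number is not reported here for the other fits, so their counts cannot be read as an excess. Of the 41 log2 differences 35 were above 0, with a median of 0.27. Over all tested genes 7912 of 16325 were above 0, with a median of -0.0054. Leaving out the 2 choroid-rich libraries gave 0 called genes, 4 at an unadjusted p under 0.05 and a median of 0.32. The smallest p belonged to Pold1 (0.38 ± 0.18), Chaf1a (0.37 ± 0.18) and Cdt1 (0.69 ± 0.34), each with an adjusted p of 0.667 (edgeR). In shams 0 of 41 were called (0% of all, and 0 by DESeq2 and by voom) and the median was -0.06. An unadjusted p under 0.05 was seen for 2 of the 41, against 782 of 16325 tested genes. In that comparison Ccne2 (-0.32 ± 0.13), Orc6 (-0.20 ± 0.09) and Chaf1a (-0.36 ± 0.24) had the smallest p, with adjusted p of 0.965. Fitted without the 2 choroid-rich libraries, the sham comparison gave 0 called, 0 at an unadjusted p under 0.05 and a median of -0.064. The fold change of stroke was larger on the high-fat diet for 39 of 41 genes, against 8383 of 16325 tested genes. The 41 genes share libraries, so their signs are not independent. The difference between these fold changes, tested as an interaction, was called for 0 of 41 (0% of all, and 0 by DESeq2 and by voom). Its median was 0.33, against 0.0066 over all tested genes. An unadjusted p under 0.05 was seen for 1 gene, against 914 of 16325 tested genes. There were 8 such genes with voom and 4 without the 2 low 15-week libraries, with no number over all genes reported here. With edgeR that gene was Chaf1a (0.73 ± 0.30, adjusted p = 0.832, edgeR), followed by Gins4 (0.23 ± 0.12) and Prim1 (0.43 ± 0.29). The interaction without the 2 choroid-rich libraries gave 0 called, 1 at an unadjusted p under 0.05 and a median of 0.37. The counts of 11 and 30 thus do not show a difference between the diets, and the high-fat stroke group also had more libraries, 6 against 4.

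After 15 weeks of diet the same direction between diets was seen in stroke cortex. Mcm6 measured 30.8, 28.8, 12.9 and 23 CPM on the control diet and 13.6 to 47 with a median of 39.2 CPM on the high-fat diet, and Uhrf1 18.6, 13.4, 4.18 and 11.7 CPM and 2.05 to 22.3 with a median of 17.7 CPM. Rrm2 measured 14.3, 11.4, 4.90 and 9.89 CPM and 4.03 to 21 with a median of 15.5 CPM. In each of these genes replicate 3 of the control group and replicate 1 of the high-fat group were the lowest of their groups, and the 2 groups overlapped. No gene of the 41 was called between diets (edgeR, 0% of all tested genes, and 0 by DESeq2 and by voom). An unadjusted p under 0.05 was seen for 7 (8 with DESeq2 and 13 with voom), against 1299 of 16325 tested genes with edgeR. Of the differences, 38 of 41 were above 0, against 8232 of 16325 over all tested genes. The median was 0.30, against 0.0013. Gins3 (0.43 ± 0.16), Pole2 (0.87 ± 0.33) and Mcm6 (0.59 ± 0.25) had the smallest p (adjusted p = 0.541, 0.559 and 0.586, edgeR). Without the 2 libraries of low phagocyte markers the count stayed at 0, with 15 genes at an unadjusted p under 0.05 and a median of 0.31. How many of all tested genes had such a p in that fit is not reported here. The change of the diet difference with time was called for 0 of 41 (0% of all, and 0 by DESeq2 and by voom). It was led by Gins3 (0.70 ± 0.22), Ccne2 (0.33 ± 0.14) and Pola1 (0.26 ± 0.19). An unadjusted p under 0.05 was seen for 2 of the 41, against 792 of 16325 tested genes. The median of this change was 0.049. It was 0.023 without the 2 low libraries and -0.025 without the 2 choroid-rich ones, with 0 called in each.

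The 2 feeding times could be compared in stroke cortex only, so a change with time of the injury response and a change with time of the cortex itself cannot be told apart. Between 6 and 15 weeks 0 of 41 genes were called on the control diet (edgeR, 0.564% of tested genes, and 0 by DESeq2 and by voom), with a median of 0.13. An unadjusted p under 0.05 was seen for 4 of the 41, against 2742 of 16325 tested genes. Pola2 (0.63 ± 0.23), Gins3 (-0.46 ± 0.17) and E2f1 (0.25 ± 0.11) had the smallest p, at adjusted p of 0.18, 0.188 and 0.231 (edgeR). On the high-fat diet 0 of 41 were called by edgeR (2.35% of tested genes) and by DESeq2, 3 had an unadjusted p under 0.05, 38 of 41 were above 0 and the median was 0.21. Here Ccne2 (0.25 ± 0.09), Mcm4 (0.40 ± 0.15) and Gins4 (-0.15 ± 0.07) had the smallest p, at adjusted p of 0.144, 0.163 and 0.222, and voom, which gives a low weight to libraries far from their group, called 5 genes, where it called 11.1% of all tested genes. Without the 2 choroid-rich libraries, 0 of 41 genes and 2.73% of tested genes were called on the high-fat diet. The count depended on 1 or 2 other libraries. Without replicate 1 of the high-fat group, 5 of 41 genes were higher at 15 weeks (Mcm4, Pola1, Pole, Lig1 and Ccne2), where 8.01% of tested genes were called. Without that library and replicate 3 of the control group, 12 were higher, where 10.5% of tested genes were called in either direction. They were all 6 of Mcm2 to Mcm7 (0.35 to 0.61 on the log2 scale), Cdt1, Pola1, Pola2, Pole, Lig1 and Ccne2, with a median of 0.33 over the 41. On the control diet Pola2 (0.69) and Pole (0.80) then passed, where 3.15% of tested genes did. Both libraries were singled out because their lesion markers were low, a measure that moves with the replication genes, so the values without them are no independent test. Libraries were left out on the 15-week side only. The control-diet library left out had a phagocyte sum of 156 CPM, while a 6-week control-diet stroke library at 188 CPM stayed in. The percentage of fragments outside genes also differed between the times, at 25.8% to 31.8% and 31.4% to 38.1% on the control diet and 29.4% to 32.6% and 31.7% to 43.4% on the high-fat diet. With it in the fit over all libraries, 0 of 41 genes and 0% of tested genes were called on either diet, 2 of the 41 had an unadjusted p under 0.05 on each, and the medians were 0.26 and 0.32.

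The 15-week values of the other abundant members showed the same 2 low libraries in some genes and not in others. Pcna was at 55.5, 54.9, 37.7 and 48.9 CPM on the control diet and 32.5 to 71.4 with a median of 56 CPM on the high-fat diet, and Rrm1 at 44.4, 45.1, 25.3 and 36.9 CPM and 26.3 to 56.3 with a median of 47.1 CPM. Cdc45 was at 4.81, 5.84, 2.17 and 4.19 CPM and 1.64 to 6.84 with a median of 5.52 CPM, and Pola1 at 24.3, 23.8, 18.2 and 19.6 CPM and 15.5 to 31.9 with a median of 27.3 CPM. Lig1 was at 15.1, 13.6, 11.6 and 13.3 CPM and 8.05 to 18.6 with a median of 16.1 CPM, and Fen1 at 16.5, 16.2, 10.1 and 16.9 CPM and 9.04 to 18.9 with a median of 17 CPM. In these 6 genes the lowest value of each 15-week group came from replicate 3 on the control diet and replicate 1 on the high-fat diet. Prim2 (14.3, 14.2, 10.5 and 10.5 CPM; 9.78 to 14 with a median of 13.2 CPM), Rfc2 (29.1, 31.5, 23 and 29.1 CPM; 26.5 to 33.4 with a median of 30.5 CPM) and Chaf1a (7.58, 5.91, 6.67 and 6.95 CPM; 5.83 to 12 with a median of 7.57 CPM) were lowest in the same replicates, apart from Chaf1a on the control diet, lowest in replicate 2. Orc6 (23.3, 21, 24.5 and 21 CPM; 20.1 to 25.4 with a median of 22.6 CPM) and Gins4 (17.9, 16.2, 19 and 15.9 CPM; 16 to 18.9 with a median of 17.1 CPM) were lowest in other replicates of both groups. Ccne2 (14.5, 13.2, 12 and 11.7 CPM; 12.2 to 17.7 with a median of 15.1 CPM) was lowest in replicate 4 on the control diet and in replicate 1 on the high-fat diet. Ccne1, at 13.5, 13.6, 17.4 and 15 CPM and 12.8 to 17.8 with a median of 14.7 CPM, was highest on the control diet in replicate 3, where Mcm6, Rrm2 and Uhrf1 were lowest.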

How the data were processed

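The deposited tables hold raw read counts per gene, made by the authors from stranded total RNA libraries. The submitters' processing notes name Trim Galore, STAR, featureCounts, HTSeq and the mouse build mm9, without versions; which tool made the counts, and whether strand was used, is not given in the sources used here. Entries that name no gene stayed out of library sizes. Counts were filtered with filterByExpr (minimum count 10), scaled by TMM and fitted with edgeR 4.0.16 (quasi-likelihood, R 4.3.3) over all 26 libraries with 1 mean per group, with Benjamini-Hochberg adjustment over all 16325 tested genes and a threshold of 0.05. Levels are TMM-scaled CPM, and levels per kilobase use merged exon lengths of a GENCODE annotation of GRCm38, not the build of the counts. Alternatives used DESeq2 1.42.0, limma 3.58.1 (voom with quality weights), other filters and left-out libraries. The fit was tested on simulated data. Members named with values in every library are the 2 most abundant of each role, with Tk1 added after its values were seen; other pathway genes named are the 4 of smallest p in each list, of which 1 is not reported here. The members and lists were chosen with earlier results of these data known.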

Additional observations from a re-analysis of the deposited data

Results flagged for a closer look

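For 68 combinations of a named gene and a group of 4 to 10 libraries, the gap between the extreme library and the rest was set against the range of the group (Dixon's test at 95%). In 6 of the 68 1 library stood apart, and chance alone gives about 1 in 20. The 68 are not independent, since the genes share libraries. Of these, 4 were low values in replicate 1 of the 15-week high-fat stroke group: Prim2 at 9.78 CPM against 12.7 to 14.0 in the other libraries of the group, Uhrf1 at 2.05 CPM against 15.3 to 22.3, Rrm2 at 4.03 CPM against 15.2 to 21.0, and Cdc45 at 1.64 CPM against 4.90 to 6.84. The same library had the lowest summed phagocyte level of the stroke libraries. Fen1 was low in replicate 3 of the 15-week control-diet stroke group, at 10.1 CPM against 16.2 to 16.9. Chaf1a was low in replicate 4 of the 6-week control-diet stroke group, at 4.34 CPM against 5.76 to 5.98.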

How the results depend on the processing

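The 11 genes called after stroke on the control diet became 19 with voom, 7 with no filter on low counts, 19 with only the groups compared in the fit, 5 when the percentage outside genes entered the fit, and 19 without the 2 15-week libraries of low phagocyte markers; RLE, DESeq2, the stricter filter and leaving out the 2 choroid-rich libraries gave 11, 14, 11 and 10. The share of all tested genes called, 7.68% here, moved with these counts: it was 17.3% with voom, 2.73% with no filter, 15.9% with only the groups compared, 3.27% with the percentage outside genes and 14.4% without the low libraries. The 30 genes on the high-fat diet became 15 with that percentage in the fit and 19 without the choroid-rich libraries. The 23.1% of all tested genes became 8.4% and 11.1% in those 2 fits. Under the other alternatives 26 to 33 genes were called, where 11.6% (no filter, 26 genes) to 35.6% (voom, 33 genes) of all tested genes were. Leaving out 1 library at a time gave 3 to 19 genes on the control diet and 20 to 34 on the high-fat diet (20 without high-fat sham replicate 2, 34 without replicate 1 of the 15-week high-fat group). In every one of these fits 2 of the 11 and 19 of the 30 were called. Between 15 and 6 weeks, the counts of 0 became 2 on the control diet and 12 on the high-fat diet without the 2 low libraries, and 5 on the high-fat diet with voom; leaving out 1 library at a time gave 0 to 5 on the high-fat diet and 0 to 0 in the other comparisons. Some log2 fold changes near 0 changed sign. On the control diet, Orc6 became -0.0036 with no filter and ran from -0.072 (without stroke replicate 4) to 0.070 with 1 library left out, and was also below 0 without sham replicate 3. Pold1 ran from -0.11 to 0.17 in such fits, below 0 without stroke replicate 2, stroke replicate 3 or sham replicate 3. Fen1 became -0.029 with the percentage outside genes in the fit. On the high-fat diet, E2f1 ran from -0.16 to 0.034 with 1 library left out, above 0 without stroke replicate 6, sham replicate 1 or sham replicate 3, and Ccne1 became -0.0084 with the percentage outside genes in the fit. The causes of these changes were not tested. The fits that left libraries out do not separate the number of libraries from which ones were left out. No paired analysis was possible because the labels give the libraries no replicate numbers shared between groups. The scarcest genes, such as Tk1 with 7 counts and Orc1 with 5 over the 3 high-fat shams, are limited by depth.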
